A study of Mus musculus with 12 samples.

Results

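The genes described here are 10 genes of macroautophagy, taken by symbol from the 48795 genes listed in each library: the autophagy receptors Sqstm1, Nbr1 and Optn, the ATG8 family genes Map1lc3a, Map1lc3b and Gabarapl1, the transcription factor genes Tfeb, Tfe3 and Mitf, and Becn1. All 10 were listed, and all 10 were among the 11228 genes that passed a filter of CPM above 1.5 in at least 2 of the 12 libraries, where CPM is a gene's count scaled to the library's total. RNA was sequenced from bone marrow derived macrophages (BMDMs), which are macrophages grown from mouse marrow cells with M-CSF, in 6 groups of 2 libraries. WT cells carried the strain label C57BL/6, and the study's methods name C57BL/6NJ; Acod1-/- cells came from C57BL/6NJ-Acod1em1(IMPC)J/J mice, which carry an edited allele of the gene for the itaconate-producing enzyme Acod1 in every cell. The donors were male mice between 7 and 11 weeks of age by the methods, and neither the number of animals nor whether same-numbered libraries shared an animal is given in the sources used here. Each genotype received vehicle, particulate matter (PM) at 20 μg/cm2 for 24 hours, or the cell-permeable itaconate ester 4-octyl itaconate (OI) at 0.25 mM for 2 hours before the same PM exposure (OI+PM). There was no group with OI alone, so an effect of OI was measured only in cells that also had PM. The study describes the WT comparator of OI+PM as having vehicle in place of OI ahead of PM. Whether the Acod1-/- libraries with PM also had that vehicle is not given in the sources used here.

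In macroautophagy a double membrane closes around cargo and the resulting autophagosome fuses with a lysosome. Receptors such as SQSTM1 (p62), NBR1 and OPTN bind ubiquitin on the cargo with one part of the protein and ATG8 proteins on the membrane with another. ATG8 proteins, which include the LC3 and GABARAP groups, are attached to a membrane lipid. BECN1 is a subunit of the lipid kinase complex that marks the growing membrane. TFEB, TFE3 and MITF are related transcription factors that enter the nucleus when mTORC1 activity at the lysosome is low and raise the expression of lysosomal and autophagy genes. SQSTM1 also binds KEAP1, the protein that holds the transcription factor NRF2 for degradation, and is itself known as an NRF2 target. In macrophages these proteins take part in the removal of bacteria, damaged mitochondria and aggregates. RNA levels measure none of protein, nuclear entry or autophagic flux.

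Sqstm1 and Gabarapl1 were the members with the largest rises. Sqstm1 rose 2.46-fold with PM and a further 2.18-fold when OI preceded PM in WT BMDMs, whereas Gabarapl1 rose 1.21-fold with PM and 2.28-fold with OI+PM over PM. Optn rose with PM and did not pass the test for OI+PM over PM, and Map1lc3a, Map1lc3b and Nbr1 rose with OI+PM over PM in WT. The calls of Map1lc3b and Nbr1 were lost without some single libraries. Those calls and that of Map1lc3a were lost when only the compared groups were fitted. The PM calls of Gabarapl1 in both genotypes, and that of Optn in Acod1-/- cells, were also lost without some single libraries. A correction for gene length took the PM value of Gabarapl1 in WT to 0.08 on the log2 scale, which was not called. In the edgeR model used for the values below, with all 6 groups and TMM scaling, Tfeb and Mitf did not pass the test in any comparison, no member fell and none differed between the genotypes. Other settings called members between the genotypes, and after OI+PM the values of several members moved with the WT library left out. Both are given with the genotype comparison.

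The libraries held between 33616577 and 36817898 counts on genes. Spread between the 2 libraries of a group was uneven: the chi-square per degree of freedom over genes with at least 20 counts was 3.0 and 2.61 in the WT and Acod1-/- vehicle groups, 27.3 and 8.32 in the PM groups, and 58.5 and 4.16 in the OI+PM groups. The log2 difference between the 2 libraries followed the exonic length of the gene in WT with OI+PM (Spearman's rho 0.61 across genes, which are not independent replicates), in WT with PM (0.60) and, in the other direction, in Acod1-/- cells with PM (-0.36). The members' main results that rest on the WT OI+PM group, which had the widest spread, are also given without 1 or the other of its libraries. Markers of macrophages (7 of 7 tested) summed to between 13978 and 26928 CPM and were highest in the PM groups. Markers of neutrophils and their precursors (3 of 7 tested) summed to between 5.97 and 6.58 CPM with vehicle, between 12.4 and 19.0 with PM, and to 29.5, 60.9, 33.4 and 34.0 in the OI+PM libraries, with Ly6g at 0 in 5 of the 6 groups; their part in the results was not tested. Markers of dendritic cells, lymphocytes, stroma and red cells summed to at most 0.546, 0.111, 2.59 and 0 CPM. Acod1, the targeted gene, had 181 and 170 CPM in WT libraries with PM and 107 and 93.9 CPM in the libraries labelled Acod1-/- with PM. A gene total also counts exons that an edited allele may still transcribe, so it does not check the genotype labels, and directions between genotypes are those of the labels. In bulk RNA a change in the share of a cell type and a change in RNA per cell cannot be told apart.

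Levels between genes were compared as normalized CPM per kilobase of exon. In vehicle-treated WT BMDMs, Sqstm1 was highest at 151 and 153 per kb in the 2 libraries. Gabarapl1 followed at 99.1 and 96.4, Nbr1 at 32.2 and 31.1, and Mitf at 20.9 and 20.5. These 4 levels did not overlap with each other. Becn1 (14.4 and 13.9), Map1lc3a (13.2 and 14.8) and Tfe3 (13.3 and 12.9) lay close together, and the library values of Map1lc3a spanned those of Becn1 and of one Tfe3 library. Map1lc3b stood at 12.4 and 11.9, Tfeb at 8.62 and 8.64, and Optn, the least abundant receptor, at 4.74 and 4.96. After OI+PM in WT the first 3 places were the same, with Sqstm1 at 687 and 943, Gabarapl1 at 252 and 286, and Nbr1 at 36.9 and 32.5 per kb. Map1lc3a then stood at 21.3 and 29.2 and overlapped Mitf at 21.8 and 17.4.

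**Figure D1:**
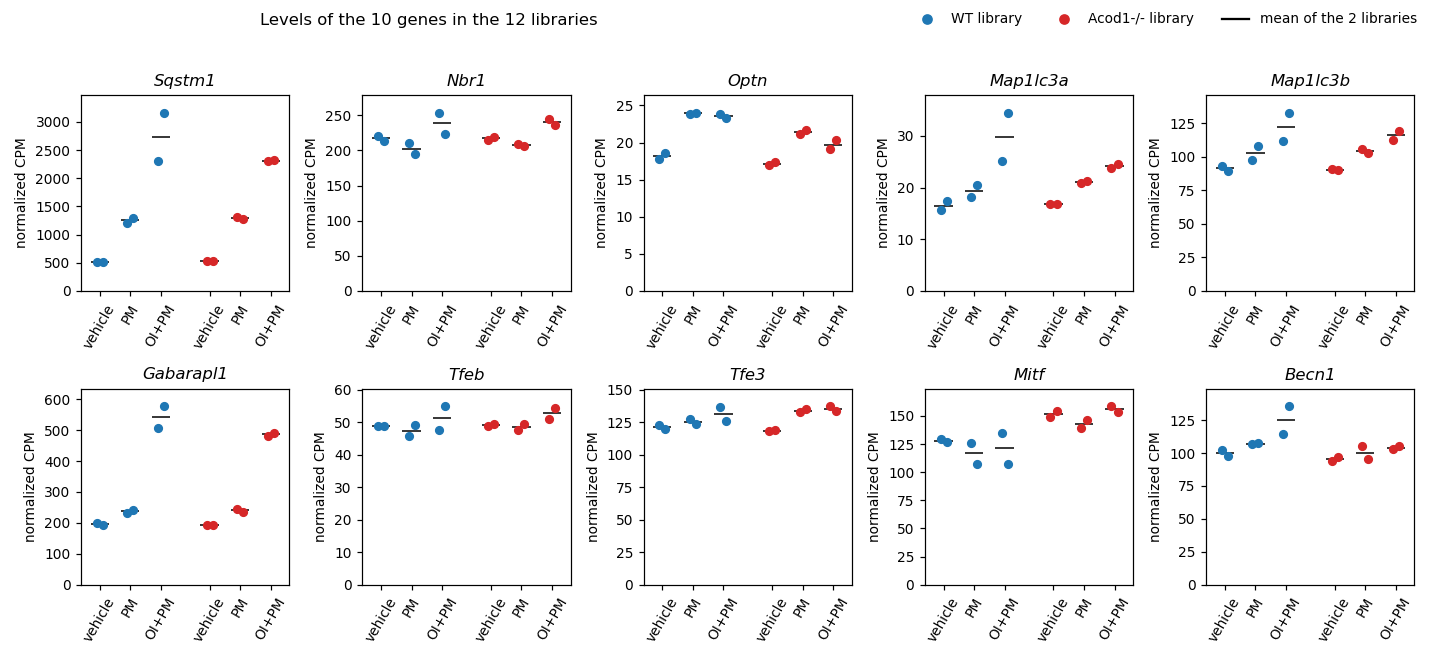
Normalized CPM (vertical axes, from 0, scaled by gene) of the 10 genes in the 12 libraries by treatment, each point 1 library (WT blue, Acod1-/- red) and each bar the mean of the 2. Sqstm1 climbs from 506 and 514 with vehicle to 2305 and 3163 with OI+PM in WT, Gabarapl1 is far higher with OI+PM than elsewhere, and Tfeb stays between 45.7 and 54.9.

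Sqstm1 (ENSMUSG00000015837.15, GRCm38 chr11:50199366-50210827, minus strand, 3356 exonic bases) encodes the receptor p62. Its normalized CPM was 506 and 514 in WT libraries with vehicle, 1215 and 1291 with PM, and 2305 and 3163 with OI+PM. In Acod1-/- libraries it was 533 and 525, 1305 and 1276, and 2304 and 2325. In both genotypes the 3 treatments did not overlap. The OI+PM libraries of WT lay far apart, with the lower one next to the Acod1-/- pair and the other well above it.

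With PM the log2 fold change of Sqstm1 was 1.30 (SE 0.117, adjusted p = 3.82e-05) in WT and 1.29 (SE 0.117, adjusted p = 3.27e-05) in Acod1-/- cells (edgeR, quasi-likelihood test, adjusted by Benjamini-Hochberg over the 11228 genes). OI+PM over PM gave 1.13 (SE 0.116, adjusted p = 3.14e-05, edgeR) in WT and 0.84 (SE 0.115, adjusted p = 0.000258, edgeR) in Acod1-/- cells. OI+PM against vehicle, which shares its libraries with the other contrasts, gave 5.36-fold in WT and 4.37-fold in Acod1-/- cells. Its log2 value in WT was 2.42, against 2.63 without OI+PM replicate 1 and 2.18 without replicate 2. Without replicate 1 of the WT OI+PM group the OI effect in WT was 1.34, and without replicate 2 it was 0.88; both passed the test. Exons of Sqstm1 share 580 bases with Mrnip, and whether reads were assigned by strand is not given in the sources used here. Mrnip held between 39 and 139 counts per library, against at least 18940 for Sqstm1.

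The promoter of Sqstm1 is shown because Sqstm1 had the largest range of levels among the members. RefSeq gives it 1 promoter, and the stretches printed here lie between 250 and 8 bases upstream of the start of its RNA, on the minus strand of GRCm38.p6 and written 5′ to 3′. The first covers chr11:50210910-50211070 and the second chr11:50210828-50210889. Capitals mark GC boxes, the letters GGGCGG on either strand, which bind SP1 family factors.
Sqstm1 far stretch: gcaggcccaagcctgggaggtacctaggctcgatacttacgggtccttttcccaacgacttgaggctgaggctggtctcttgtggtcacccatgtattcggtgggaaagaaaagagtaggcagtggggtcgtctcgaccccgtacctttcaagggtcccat
Sqstm1 near stretch: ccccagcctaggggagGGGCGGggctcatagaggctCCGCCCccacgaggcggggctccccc
The whole window held 3 GC boxes, at 72, 53 and 33 bases upstream of the start, and the last 2 lie in the near stretch. A GC box was found in 32.7% of all 32851 RefSeq promoters of this length.

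Gabarapl1 (ENSMUSG00000030161.8, GRCm38 chr6:129533160-129542346, plus strand, 2013 exonic bases) encodes an ATG8 protein of the GABARAP group. Its normalized CPM was 199.5 and 194.1 in WT libraries with vehicle, 233 and 243 with PM, and 508 and 577 with OI+PM. In Acod1-/- libraries it was 192 and 194.1, 245 and 237, and 482 and 491. The PM libraries lay a little above the vehicle libraries, and the 4 OI+PM libraries lay far above both, with no overlap in either genotype.

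The PM effect on Gabarapl1 was 0.27 on the log2 scale (95% interval 0.12 to 0.42, adjusted p = 0.0154, edgeR) in WT and 0.32 (adjusted p = 0.00642, edgeR) in Acod1-/- cells. Both calls were lost without some single libraries, although the size of the change stayed between 0.24 and 0.30 in WT and between 0.29 and 0.34 in Acod1-/- cells. Without WT vehicle replicate 1, WT vehicle replicate 2 or WT PM replicate 2 the adjusted p in WT was 0.0767, 0.107 and 0.0940 by edgeR. Without vehicle replicate 1 or PM replicate 1 of Acod1-/- it was 0.0570 and 0.0573. A correction for gene length within each library, fitted as an offset, took the WT value to 0.08 (adjusted p = 0.291, edgeR) and the Acod1-/- value to 0.18 (0.0378). The step from PM to OI+PM was larger, at 1.19 (95% interval 1.04 to 1.34, adjusted p = 3.69e-07, edgeR) in WT and 1.01 (0.86 to 1.16, adjusted p = 1.21e-06, edgeR) in Acod1-/- cells. It was 1.28 and 1.09 in WT without replicates 1 and 2 of the OI+PM group. Over both steps Gabarapl1 rose 2.75-fold in WT and 2.52-fold in Acod1-/- cells, and the WT value of 1.46 on the log2 scale was 1.55 and 1.37 without replicates 1 and 2 of the OI+PM group. Its exons share 570 bases with 1700101I11Rik, which held between 14 and 57 counts per library.

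Gabarapl1 had 1 RefSeq promoter, shown because its response to OI+PM was the other large one. The printed stretch is chr6:129532942-129533159 on the plus strand of GRCm38.p6, between 250 and 33 bases upstream of the start, with a GC box in capitals.
Gabarapl1 upstream: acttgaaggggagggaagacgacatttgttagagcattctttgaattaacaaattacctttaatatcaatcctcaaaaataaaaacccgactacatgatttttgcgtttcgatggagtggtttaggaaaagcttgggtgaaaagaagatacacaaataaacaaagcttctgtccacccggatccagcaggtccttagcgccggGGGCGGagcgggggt
A second GC box lay 10 bases upstream of the start, outside the printed stretch.

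Optn (ENSMUSG00000026672.11, GRCm38 chr2:5020642-5064051, minus strand, 3753 exonic bases) encodes optineurin, a receptor for damaged mitochondria and bacteria that is activated by the kinase TBK1. Normalized CPM was 17.8 and 18.6 in WT libraries with vehicle, 23.9 and 24.0 with PM, and 23.9 and 23.3 with OI+PM. In Acod1-/- libraries it was 17.0 and 17.4, 21.1 and 21.7, and 19.1 and 20.3. PM libraries stood above vehicle libraries in both genotypes, and OI+PM libraries stood at or a little under the PM level. Optn rose with PM by 0.40 on the log2 scale (95% interval 0.24 to 0.55, adjusted p = 0.0028, edgeR) in WT and by 0.32 (adjusted p = 0.00858, edgeR) in Acod1-/- cells. In Acod1-/- cells the adjusted p by edgeR was 0.0782, 0.0527 and 0.0562 without vehicle replicate 1, vehicle replicate 2 and PM replicate 2. Optn held between 621 and 837 counts per library, among the fewest of the members.

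The Optn promoter is printed for contrast with those of Sqstm1 and Gabarapl1, since Optn was called with PM and not with OI+PM over PM. It is chr2:5064118-5064367 on the minus strand of GRCm38.p6, the 250 bases before the RefSeq start, with its single GC box in capitals.
Optn upstream: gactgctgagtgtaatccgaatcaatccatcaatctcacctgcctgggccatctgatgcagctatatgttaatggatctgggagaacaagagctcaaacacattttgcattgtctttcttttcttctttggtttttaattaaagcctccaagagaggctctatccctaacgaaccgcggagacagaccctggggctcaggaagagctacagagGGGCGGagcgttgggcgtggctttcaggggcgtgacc
In all, 8 of the 10 members matched a RefSeq promoter, with 14 promoters among them. The CLEAR core GTCACGTG, which TFEB family factors bind, and the shorter E-box CACGTG it contains were searched on both strands in the 250 bases upstream. They occurred in none of the 14 promoters, against 1.85% and 6.02% of all promoters. The AP-1 letters TGANTCA occurred in none, against 6.75%. The core of the antioxidant response element, TGACNNNGC, to which NRF2 binds, occurred in 1 promoter, the second of Mitf, against 10.2% of all. A set of 14 promoters is small beside such shares, so finding none does not show a lack of these letters in the members. A match in letters is not a bound site, and a window of this size leaves out more distant sequence.

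Nbr1 (ENSMUSG00000017119.19, chr11:101552149-101581951), a receptor that binds SQSTM1 and ubiquitin, varied little. Its normalized CPM was 221 and 214 in WT with vehicle, 210.8 and 194.4 with PM, and 253 and 223 with OI+PM, and in Acod1-/- libraries 215 and 220, 209 and 206.3, and 244 and 235. The OI+PM libraries were the highest in each genotype and the PM libraries the lowest. Nbr1 rose with OI+PM over PM by 0.24 on the log2 scale (95% interval 0.08 to 0.39, adjusted p = 0.0227, edgeR) in WT and by 0.21 (adjusted p = 0.0447, edgeR) in Acod1-/- cells. The WT value was 0.32 without OI+PM replicate 2, and the WT call was lost without OI+PM replicate 1 (0.14) or PM replicate 2 (0.18). This call was also lost with the compared groups alone (adjusted p = 0.305, edgeR), total count scaling (0.11, 0.349) or a filter of 1.5 CPM in all 12 libraries (0.0514). The Acod1-/- call was lost without any 1 of the 4 libraries, with adjusted p between 0.107 and 0.207 by edgeR, and with RLE (0.0507) or total count scaling (0.266), and with a filter of 10 counts in total (0.0535) or of 1.5 CPM in all 12 libraries (0.0741). Against vehicle, Nbr1 was called with the gene-length correction in WT (0.28) and Acod1-/- cells (0.24), in WT without OI+PM replicate 2 (0.22), and in Acod1-/- cells with the compared groups alone (0.16), but not in the model of all 6 groups (0.13 and 0.14).

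Map1lc3a (ENSMUSG00000027602.9, chr2:155276297-155278073) and Map1lc3b (ENSMUSG00000031812.16, chr8:121590361-121598760) encode the LC3A and LC3B proteins. Map1lc3a had 15.6 and 17.4 normalized CPM in WT with vehicle, 18.1 and 20.5 with PM, and 25.2 and 34.5 with OI+PM. In Acod1-/- libraries it had 16.8 and 16.9, 20.9 and 21.3, and 23.8 and 24.6. Groups did not overlap within a genotype, and the higher of the WT OI+PM libraries stood apart from all others. Map1lc3a rose with OI+PM over PM in WT by 0.63 (95% interval 0.33 to 0.92, adjusted p = 0.00385, edgeR). Without OI+PM replicate 2 the value was 0.39 (adjusted p = 0.00870, edgeR) and without replicate 1 it was 0.84. The call was lost with the compared groups alone (adjusted p = 0.0834, edgeR). In Acod1-/- cells it did not pass the test for either step, and PM gave 0.32 (adjusted p = 0.110, edgeR). With the compared groups alone both steps were called in Acod1-/- cells (0.33 and 0.20, adjusted p = 0.00184 and 0.0300, edgeR), beside 50.4% and 51.6% of all genes, and a block on replicate number with the Acod1-/- PM numbers exchanged, chosen after seeing the data and called the exchanged block here, called PM (0.0483).

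Map1lc3b had 93.2 and 89.4 normalized CPM in WT with vehicle, 97.7 and 108 with PM, and 112 and 133 with OI+PM, against 90.5 and 89.8, 106 and 103, and 113 and 119 in Acod1-/- libraries. It climbed in the same order of treatments in both genotypes without overlap, by small steps. OI+PM over PM in WT gave 0.25 (95% interval 0.05 to 0.44, adjusted p = 0.0419, edgeR). The value was 0.37 without OI+PM replicate 1. The call was lost without OI+PM replicate 2 (0.12) or PM replicate 1 (0.17). It was also lost with the compared groups alone (adjusted p = 0.308, edgeR), total count scaling (0.12, 0.225), the gene-length correction (0.30, 0.0514) or the filter of 1.5 CPM in all 12 libraries (0.0632). In Acod1-/- cells the steps were 0.21 and 0.16 and were called with the compared groups alone (adjusted p = 0.00432 and 0.0291, edgeR), and the length correction with the replicate block called PM (0.33, 0.0419). OI+PM against vehicle was called in both genotypes, at 0.42 (adjusted p = 0.0021, edgeR) in WT and 0.36 (adjusted p = 0.00636, edgeR) in Acod1-/- cells, the latter lost without OI+PM replicate 2 (0.0538). Total count scaling gave 0.20 and 0.22, both called.

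Becn1 (ENSMUSG00000035086.13, chr11:101285952-101302286) had 102 and 98.04 normalized CPM in WT with vehicle, 107 and 107 with PM, and 114.5 and 135 with OI+PM. In Acod1-/- libraries it had 93.6 and 96.9, 105 and 95.1, and 103 and 105. The WT groups did not overlap and stood in the order vehicle, PM and OI+PM, with the 2 OI+PM libraries far apart, whereas in Acod1-/- cells the PM libraries overlapped both other groups. OI+PM over PM in WT gave 0.22 (95% interval 0.04 to 0.41), which did not pass the test (adjusted p = 0.0548, edgeR). It passed without OI+PM replicate 1 (0.34, adjusted p = 0.00227, edgeR) and not without replicate 2 (0.10, adjusted p = 0.325). Becn1 was also called there by DESeq2 (0.22, adjusted p = 0.0370) and by edgeR with RLE scaling (0.0460), the gene-length correction (0.27, 0.0488), that correction with the replicate block (0.0468) and the exchanged block (0.0327). Becn1 rose against vehicle in WT by 0.32 (adjusted p = 0.00755, edgeR), a call lost without vehicle replicate 2 (0.0532), with the compared groups alone (0.0758) or with total count scaling (0.10, 0.242). The gene-length correction gave 0.49 and the fit without OI+PM replicate 2 gave 0.20, both called. Exons of Becn1 share 3104 bases with Cntd1, which held between 5 and 51 counts per library.

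Of the transcription factor genes, Tfeb (ENSMUSG00000023990.18, chr17:47737030-47792419) lay between 45.7 and 54.9 normalized CPM in all 12 libraries. It had 48.9 and 49.0 in WT with vehicle, 45.7 and 49.1 with PM, and 47.8 and 54.9 with OI+PM, and 48.8 and 49.4, 47.7 and 49.6, and 50.9 and 54.5 in Acod1-/- libraries. Treatments overlapped in WT, and OI+PM was highest in Acod1-/- cells. For OI+PM over PM in WT, Tfeb gave 0.11 (adjusted p = 0.271, edgeR), against 0.21 (0.0322) without OI+PM replicate 1 and 0.01 (0.927) without replicate 2. OI+PM against vehicle in Acod1-/- cells was called with the compared groups alone (0.12, adjusted p = 0.0220, edgeR).

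Tfe3 (ENSMUSG00000000134.17, chrX:7762560-7775202) had 123 and 119.5 normalized CPM in WT with vehicle, 128 and 124 with PM, and 137 and 126 with OI+PM. In Acod1-/- libraries it had 118 and 119, 133 and 135, and 137 and 134. In both genotypes the vehicle libraries were the lowest, and PM and OI+PM overlapped. Tfe3 was called once, for OI+PM against vehicle in Acod1-/- cells (0.19, adjusted p = 0.0252, edgeR), and this was lost without any 1 of the 4 libraries, with total count scaling (0.04, 0.662) or with the filter of 1.5 CPM in all 12 libraries (0.0533). PM in Acod1-/- cells gave 0.18 (adjusted p = 0.0607, edgeR), which passed with the compared groups alone (0.00825) and with the exchanged block (0.0382). The gene-length correction raised Tfe3 past the threshold for PM (0.23 in WT and 0.34 in Acod1-/- cells) and for OI+PM against vehicle (0.37 and 0.36), and OI+PM against vehicle in WT also passed without OI+PM replicate 2 (0.17).

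Mitf (ENSMUSG00000035158.15, chr6:97807052-98021349) was the member for which both libraries labelled Acod1-/- lay above both WT libraries under every treatment. It had 129 and 127 normalized CPM in WT with vehicle, 126 and 108 with PM, and 135 and 108 with OI+PM, against 149 and 154, 139 and 146, and 158 and 153 in Acod1-/- libraries. Every Acod1-/- library was above every WT library. For Optn and Becn1 both Acod1-/- libraries lay below both WT libraries under every treatment. With 2 libraries a group such a separation describes the levels only, and the share of all genes separated in this way is not given here. No treatment effect on Mitf passed the test in either genotype with all libraries, and without WT OI+PM replicate 1 it fell against vehicle in WT (-0.25, adjusted p = 0.0243, edgeR).

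With PM in WT BMDMs, 3 of the 10 members were called, all higher, where 24.8% of the 11228 tested genes were called, 1414 higher and 1368 lower. In Acod1-/- cells the same 3 members, Sqstm1, Optn and Gabarapl1, were called, against 23.9% of all genes, 1344 higher and 1340 lower. The median log2 fold change of the members was 0.14 in WT and 0.19 in Acod1-/- cells, beside 0.01 and -0.00024 over all tested genes. Leaving out 1 library at a time in Acod1-/- cells left 1 or 2 members called, beside 12.4% to 15.2% of all genes, with the libraries behind each loss given with Gabarapl1 and Optn. Sqstm1 was the 1 member past 2-fold in each genotype, where 4.15% and 4.50% of genes were past it in either direction and 3.02% and 3.19% in the higher one. Among the tested genes Sqstm1 ranked 234th by log2 fold change in WT. Neutrophil and precursor markers were higher with PM than with vehicle in both genotypes, and their part in these values was not tested.

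**Figure D2:**
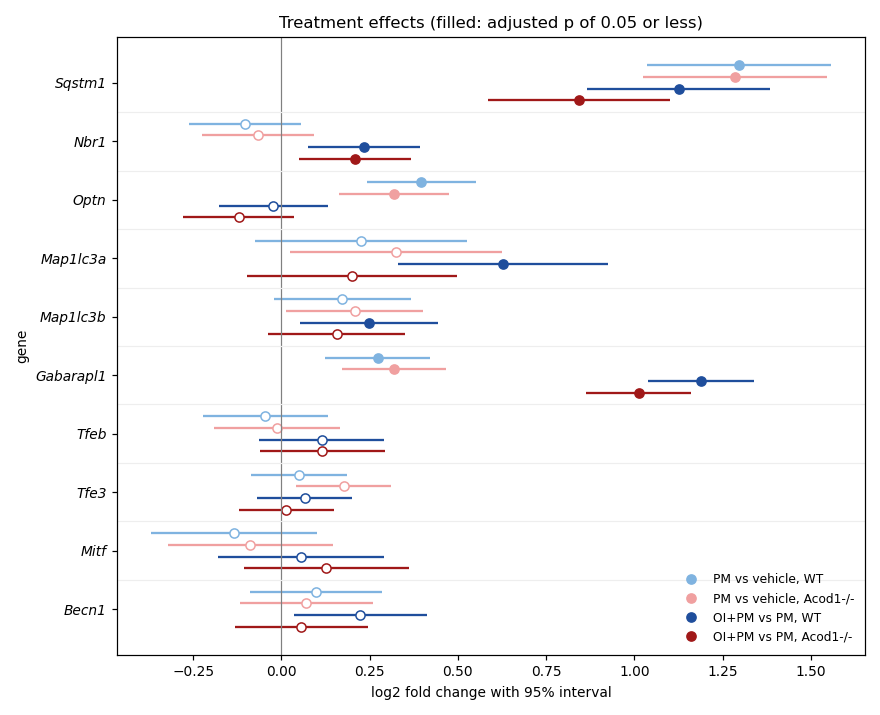
Log2 fold change (horizontal axis) with 95% interval of each of the 10 genes for PM over vehicle (pale) and OI+PM over PM (dark), with WT in blue, Acod1-/- in red and filled points for an adjusted p of 0.05 or less (edgeR). Sqstm1 lies far to the right in both contrasts (1.30 and 1.13 in WT), Gabarapl1 for OI+PM over PM (1.19 in WT), and the intervals of Tfeb and Mitf include 0.

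With OI+PM over PM, 5 members were called in WT, all higher, where 43.9% of all genes were called, 2391 higher and 2535 lower. In Acod1-/- cells 3 members were called, all higher, against 34.6% of all genes, 1564 higher and 2317 lower. Sqstm1, Gabarapl1 and Nbr1 were called in both genotypes, and Map1lc3a and Map1lc3b in WT. The median of the members was 0.23 in WT and 0.14 in Acod1-/- cells, beside 0.02 and -0.00055 over all genes. Past 2-fold were Sqstm1 and Gabarapl1 in WT, against 10.8% of all genes in either direction and 2.30% in the higher one, and Gabarapl1 in Acod1-/- cells, against 9.83% and 1.85%. The log2 value of Gabarapl1 in Acod1-/- cells, 1.01, went as low as 0.99 with 1 library left out and 0.94 over all alternatives. Sqstm1 in WT was under 2-fold (0.88) without OI+PM replicate 2. Gabarapl1 ranked 168th and Sqstm1 193rd by log2 fold change in WT. Scaled by total counts alone, 3 members were called in WT beside 42.1% of all genes, with the compared groups alone 2 beside 17.3%, and by DESeq2 6, Becn1 among them, beside 44.8%. The summed neutrophil and precursor markers, at 29.5 and 60.9 CPM in the WT OI+PM libraries, were highest in replicate 2. Sqstm1, Gabarapl1, Map1lc3a, Map1lc3b, Tfeb and Becn1 were highest in that library too, whereas Nbr1, Optn, Tfe3 and Mitf were higher in replicate 1 than in replicate 2. The part of the neutrophil and precursor markers was not tested.

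**Figure D3:**
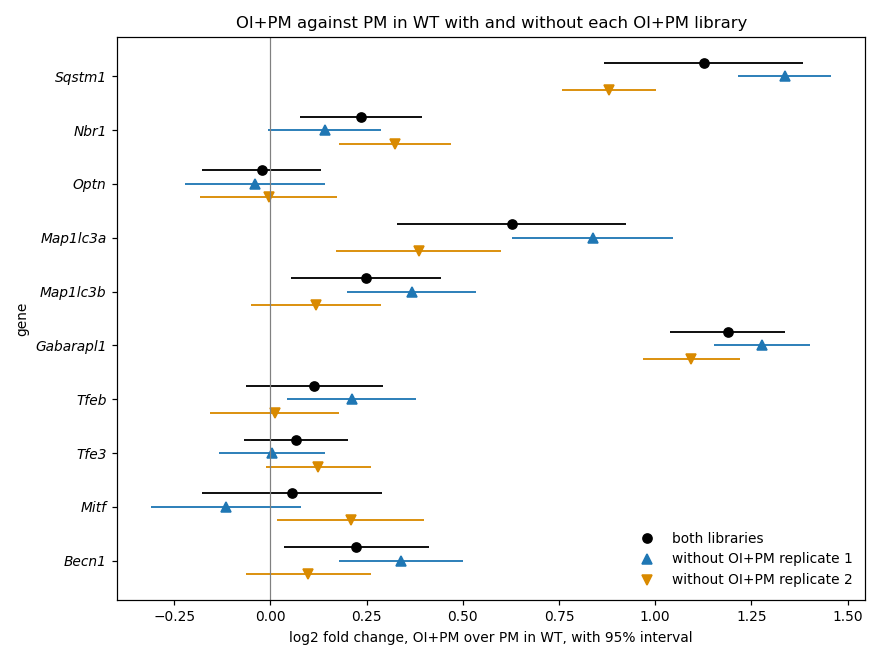
Log2 fold change of OI+PM over PM in WT (horizontal axis) with 95% interval for each of the 10 genes, with both OI+PM libraries (black), without replicate 1 (blue) and without replicate 2 (orange). Sqstm1 moves from 1.13 to 1.34 and 0.88 and stays far from 0, whereas the intervals of Map1lc3b and Becn1 reach 0 without replicate 2.

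With OI+PM against vehicle, 6 members were called in each genotype, all higher. Of all genes, 65.5% were called in WT, 3771 higher and 3579 lower, and 49.4% in Acod1-/- cells, 2548 higher and 2999 lower. Sqstm1, Gabarapl1, Map1lc3a, Map1lc3b and Optn were called in both genotypes, Becn1 in WT and Tfe3 in Acod1-/- cells. The median of the members was 0.35 in WT and 0.19 in Acod1-/- cells, beside 0.02 and -0.01 over all genes. Leaving out 1 library in Acod1-/- cells gave 2 to 4 called members, beside 3866 to 4133 of the 11228 genes. With the compared groups alone 9 members were called in Acod1-/- cells, beside 74.4% of all genes, Becn1 (0.14, adjusted p = 0.00194, edgeR), Nbr1 and Tfeb among them. Optn was lost without any 1 of the 4 libraries, and Map1lc3a without vehicle replicate 1 (adjusted p = 0.0522, edgeR) or OI+PM replicate 2 (0.0533). Optn in Acod1-/- cells (0.20) was also lost by DESeq2 (adjusted p = 0.0636), and by edgeR with the gene-length correction (0.15, 0.0880), total count scaling (0.05, 0.606) or the filter of 1.5 CPM in all 12 libraries (0.0664). In WT, Optn (0.37) was lost with total count scaling (0.15, 0.0961). The gene-length correction took Map1lc3a from 0.85 to 0.40 in WT and from 0.52 to 0.29 in Acod1-/- cells, all called. Without replicates 1 and 2 of the WT OI+PM group the WT values were 1.06 and 0.61 for Map1lc3a. They were 0.54 and 0.29 for Map1lc3b, and 0.36 and 0.39 for Optn.

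Whether loss of Acod1 changed the members was tested at each treatment, and no member passed the threshold in the model of all 6 groups. At an unadjusted p under 0.05 edgeR counted 1 member with vehicle, 2 after PM and 5 after OI+PM, beside 10.2%, 14% and 29.2% of all genes, and DESeq2 called 0, 0 and 1, the last being Mitf. Of all genes, edgeR called 1.83%, 2.40% and 6.96% in these comparisons. Mitf was higher in Acod1-/- than in WT libraries by 0.24 (95% interval 0.01 to 0.48, adjusted p = 0.457, edgeR) with vehicle, 0.29 (0.06 to 0.52, adjusted p = 0.238) after PM and 0.36 (0.13 to 0.60, adjusted p = 0.0666) after OI+PM. After PM, Optn stood at -0.16 (adjusted p = 0.337, edgeR). Other settings called members. After OI+PM, Mitf was called by DESeq2 (0.37, adjusted p = 0.0305), by edgeR with the gene-length correction (0.31, 0.0199), and by edgeR with that correction and a block on replicate number (0.32, 0.0173). The last of these also called Becn1 (-0.34, adjusted p = 0.0476, edgeR). The exchanged block called Mitf (0.37, adjusted p = 0.0229, edgeR), Becn1 (-0.26, 0.0431) and Optn (-0.26, 0.0386). The shares of all genes called after OI+PM were 11.8% by DESeq2, 15.4% with the length correction, 16.9% with that and the block, and 16.7% with the exchanged block. With vehicle, edgeR on these 2 groups alone called Mitf (0.23, adjusted p = 5.69e-06), in a fit that called 20.6% of all genes against 1.83% in the model of all 6 groups. A block on replicate number alone called 0 members between the genotypes.

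After OI+PM the values of Acod1-/- against WT were -0.24 for Sqstm1 (95% interval -0.50 to 0.02, adjusted p = 0.191, edgeR), -0.16 for Gabarapl1 (adjusted p = 0.150), -0.30 for Map1lc3a (0.164), -0.26 for Optn (0.0538) and -0.26 for Becn1 (0.0854). The library levels of Sqstm1 overlapped between genotypes, while those of the other 4 did not. With 2 libraries a group this describes the levels and is not a test, and the share of all genes without overlap is not given here. The values of Sqstm1, Gabarapl1, Map1lc3a, Becn1 and Mitf moved with the WT library left out, while that of Optn stayed between -0.24 and -0.28. Without WT OI+PM replicate 1, 6 members were called by edgeR: Sqstm1 at -0.45 (adjusted p = 0.000628), Gabarapl1 at -0.25 (0.00664), Map1lc3a at -0.51 (0.00261), Optn at -0.24 (0.0331), Becn1 at -0.38 (0.00297) and Mitf at 0.53 (0.00194). Without WT OI+PM replicate 2 the values were 0.01 for Sqstm1 (adjusted p = 0.977, edgeR), -0.06 for Gabarapl1 (0.640), -0.06 for Map1lc3a (0.814), -0.14 for Becn1 (0.357), -0.28 for Optn (0.0970) and 0.21 for Mitf (0.232), and none was called. Over all genes the same choice moved the number called from 782 to 5452 without replicate 1, or from 6.96% to 48.6% of all genes, and to 404 genes without replicate 2.

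**Figure D4:**
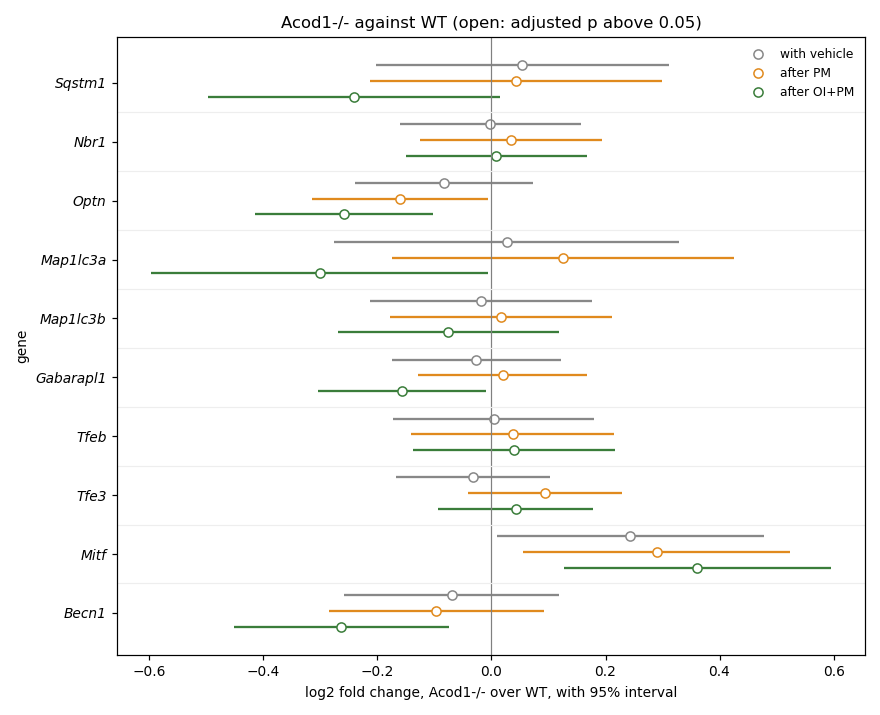
Log2 fold change of Acod1-/- over WT (horizontal axis) with 95% interval for each of the 10 genes with vehicle (grey), after PM (orange) and after OI+PM (green), all points open since no adjusted p was 0.05 or less (edgeR). Mitf is the gene whose intervals lie above 0 at all 3 treatments.

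Whether the response itself differed between genotypes was tested as an interaction. For the PM effect 0 members were called by edgeR, 0 had an unadjusted p under 0.05 beside 2.43% of all genes, and DESeq2 called 0; over all genes edgeR called 0 and DESeq2 3. For the OI effect 0 members were called by edgeR, 1 had an unadjusted p under 0.05 beside 6.39% of all genes, and DESeq2 called 0; over all genes edgeR called 0 and DESeq2 34. The 1 member was Map1lc3a, whose OI effect in Acod1-/- cells less that in WT was -0.43 (95% interval -0.85 to -0.01, adjusted p = 0.774, edgeR). The difference was -0.28 for Sqstm1 (-0.65 to 0.08, adjusted p = 0.820) and -0.18 for Gabarapl1 (-0.39 to 0.03, adjusted p = 0.812). Without WT OI+PM replicate 1, Sqstm1 (-0.49, adjusted p = 0.0190, edgeR) and Map1lc3a (-0.64, 0.0355) were called beside 4.68% of all genes, and without replicate 2 the values were -0.04 (0.953) and -0.19 (0.829).

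Other genes of the pathway were described from 8 lists with 87 tested genes. With PM in WT 20 were called higher and 8 lower, with a median of 0.06 beside 0.01 over all genes, and in Acod1-/- cells 19 and 6, where 24.8% and 23.9% of all genes were called. With OI+PM over PM, 30 were called higher and 9 lower in WT, with a median of 0.13 beside 0.02, and 18 and 7 in Acod1-/- cells, where 43.9% and 34.6% of all genes were called. The counts by list with all libraries are given in WT and stand beside the same 24.8% with PM and 43.9% with OI+PM over PM.

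The counts by list moved with single libraries, as did the share of all genes called in the same fits. The calls with PM in WT, in the order conjugation, initiation, receptors, fusion, nutrient control, responsive genes and partners, were 3, 3, 4, 3, 6, 4 and 6 with all libraries. They were 1, 1, 0, 0, 2, 1 and 5 without vehicle replicate 1, where 10.6% of all genes were called, and 2, 2, 0, 2, 1, 1 and 4 without vehicle replicate 2 (11.3% of all genes). They were 4, 5, 4, 5, 5, 3 and 5 without PM replicate 1 (30.7%), and 2, 1, 1, 0, 1, 1 and 6 without PM replicate 2 (12.4%). The partners had 4 or more of 7 called in each case. The calls with OI+PM over PM in WT, in the same order, were 4, 8, 10, 2, 9, 6 and 4, against 8, 10, 11, 4, 13, 9 and 4 without OI+PM replicate 1 (60.3% of all genes) and 2, 7, 9, 1, 6, 5 and 5 without replicate 2 (40.6%). Without PM replicate 1 they were 2, 5, 7, 1, 5, 5 and 4 (32.6%), and without PM replicate 2 they were 5, 7, 9, 3, 8, 7 and 4 (4721 of 11228 genes).

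Among 13 ATG8 conjugation genes, which process and attach ATG8 proteins, 3 rose and 0 fell with PM, and 4 rose and 0 fell with OI+PM over PM. Atg5 (0.32) and Atg7 (0.31) led with PM, and the call of Atg5 was lost without vehicle replicate 1 (adjusted p = 0.0974, edgeR) or with the gene-length correction (0.16, 0.129). With OI+PM over PM the ATG8 gene Gabarapl2 (0.57) and Atg12 (0.37) led. Gabarapl2 went to 0.82 without OI+PM replicate 1 and to 0.29 without replicate 2 (adjusted p = 0.0976, edgeR), and was lost without PM replicate 1 (0.0996), while Atg12 was called with any 1 library left out and went to 0.24, still called, with total count scaling.

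Of 14 genes for initiation and membrane supply, 2 rose and 1 fell with PM and 8 rose and 0 fell with OI+PM over PM, at a median of 0.25. Vmp1, a membrane protein of the endoplasmic reticulum needed for autophagosome formation, rose by 0.63 (adjusted p = 0.000387, edgeR) and then by 0.94 (adjusted p = 8.42e-06, edgeR). Wdr45, a lipid-binding protein of the growing membrane, rose by 0.98 with OI+PM over PM. Vmp1 and Wdr45 were called with any 1 library left out. With PM, Atg13 rose by 0.21, a call lost without any 1 of the 4 libraries (adjusted p between 0.0703 and 0.184, edgeR), with RLE (0.0509) or total count scaling (0.11, 0.238), or with a filter of 10 counts in total (0.0729). The starting kinase gene Ulk2 fell by 0.44 with PM, lost without vehicle replicate 1 (adjusted p = 0.0711, edgeR) or PM replicate 2 (0.0774).

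Of 7 partners of BECN1 in the lipid kinase complex, edgeR called 0 in either contrast, with 1 and 0 at an unadjusted p under 0.05, and DESeq2 called 0. Without replicate 1 or replicate 2 of the WT OI+PM group edgeR called 2 of the 7 for OI+PM over PM, and without PM replicate 1 it called 1.

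Of 16 other receptors, 2 rose and 2 fell with PM and 7 rose and 3 fell with OI+PM over PM. The ferritin receptor gene Ncoa4 fell by 1.16 with OI+PM over PM (adjusted p = 9.33e-05, edgeR), and by 1.36 and 0.99 without OI+PM replicates 1 and 2. Its rise with PM (0.43) was lost without any 1 of the 4 libraries (adjusted p between 0.0696 and 0.217, edgeR) and with total count scaling (0.0977). Ccpg1 and Calcoco1 rose by 0.65 and 0.50 with OI+PM over PM and were called with any 1 library left out. The aggregate adaptor gene Wdfy3 fell by 0.85 with PM, a call that held without PM replicate 1 and was lost without vehicle replicate 1 (adjusted p = 0.142, edgeR), vehicle replicate 2 (0.0942) or PM replicate 2 (0.207). Its fall by 0.67 with OI+PM over PM went to -1.10 without OI+PM replicate 1, to -0.34 without replicate 2 (adjusted p = 0.216, edgeR) and to -0.38 without PM replicate 1 (0.320), and was lost with RLE scaling, the filter of 10 counts in total or that of 1.5 CPM in all 12 libraries (adjusted p between 0.0503 and 0.0533, edgeR). With the gene-length correction the PM value was -0.53, still called. Tax1bp1 rose by 0.19 and Bcl2l13 fell by 0.28 with PM. Tax1bp1 was called without PM replicate 2 and Bcl2l13 without PM replicate 1, and each was lost without any 1 of the other libraries, with adjusted p between 0.0873 and 0.276 (edgeR). With the gene-length correction Tax1bp1 went to 0.40, called, and Bcl2l13 to -0.10 (adjusted p = 0.153, edgeR). Total count scaling ended the call of Tax1bp1 (0.10, 0.197), and the filter of 10 counts in total ended both (0.0505 and 0.0628).

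Of 7 fusion genes 1 rose and 2 fell with PM, and 0 rose and 2 fell with OI+PM over PM. The SNARE gene Snap29 fell by 0.38 with OI+PM over PM and was called with any 1 library left out. Its partner Stx17 fell by 0.38 with PM, lost without vehicle replicate 1 (adjusted p = 0.0855, edgeR) or PM replicate 2 (0.0736). Plekhm1 fell by 0.31 with OI+PM over PM, with -0.47 without OI+PM replicate 1, -0.16 without replicate 2 (adjusted p = 0.157, edgeR) and -0.23 without PM replicate 1 (0.186). With PM, Rab7 rose by 0.19, lost without vehicle replicate 1 (adjusted p = 0.129, edgeR), vehicle replicate 2 (0.118) or PM replicate 2 (0.0987), with total count scaling (0.10, 0.154) or with the gene-length correction (0.05, 0.597). Tecpr1 fell by 0.27 with PM, but its sign turned with the correction for gene length (0.01), and the call was lost without vehicle replicate 1 (adjusted p = 0.129, edgeR) or PM replicate 2 (0.0626).

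Of 18 genes for nutrient control of TFEB and TFE3, 3 rose and 3 fell with PM and 7 rose and 2 fell with OI+PM over PM. Tfec, the fourth gene of the TFEB family, rose by 0.82 with PM (adjusted p = 0.000928, edgeR). Rragd, whose GTPase takes part in TFEB control and is itself a TFEB target, rose by 0.50 with OI+PM over PM, and Ppp3cb, a calcineurin subunit gene, fell by 0.31. Tfec, Rragd and Ppp3cb were called with any 1 library left out. Rragb fell by 0.83 with PM and by 1.05 with OI+PM over PM. Its PM call held without vehicle replicate 1 and was lost without any 1 of the other libraries (adjusted p between 0.0505 and 0.116, edgeR), and the second went to -1.40 and -0.80 (0.0656) without OI+PM replicates 1 and 2. Lamtor4 rose by 0.60 in each step. With PM its call held without PM replicate 1 (0.78) and was lost without vehicle replicate 1 (adjusted p = 0.195, edgeR), vehicle replicate 2 (0.141) or PM replicate 2 (0.39, 0.294). With OI+PM over PM it went to 0.88 and 0.24 (adjusted p = 0.179, edgeR) without OI+PM replicates 1 and 2 and to 0.40 without PM replicate 1 (0.169). Rptor, an mTORC1 subunit gene, fell by 0.44 with PM, a call kept without PM replicate 1 and lost without any 1 of the other libraries (adjusted p between 0.0684 and 0.105, edgeR). With the gene-length correction Rptor stood at -0.15 (adjusted p = 0.0904, edgeR; 0.0471 with the replicate block as well), and the PM value of Lamtor4 was 0.33, still called.

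Of 12 genes known to respond to TFEB or TFE3, 4 rose and 0 fell with PM and 6 rose and 0 fell with OI+PM over PM. Their medians were 0.01 and 0.26. Gpnmb rose by 0.43 with PM and the lysosomal channel gene Mcoln1 by 0.44 with OI+PM over PM, beside Rragd above, and all 3 were called with any 1 library left out. The proton pump gene Atp6v1h rose by 0.35 with PM, a call kept without PM replicate 1 and lost without any 1 of the other libraries (adjusted p between 0.104 and 0.131, edgeR). With the gene-length correction it was 0.55, still called.

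With the compared groups fitted alone, where fewer libraries set the spread, 17.3% of all genes were called for OI+PM over PM and 23.1% for PM in WT. The calls for OI+PM over PM were lost for Atg12, Gabarapl2, Ccpg1, Wdfy3, Snap29, Plekhm1, Rragb, Rragd, Lamtor4, Ppp3cb, Mcoln1 and Nfe2l2, with adjusted p between 0.0566 and 0.234 (edgeR). With PM they were lost for Atg13, Tax1bp1, Bcl2l13 and Rab7, with adjusted p between 0.0680 and 0.0980 (edgeR).

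The partners of the receptors include sensors and targets of the NRF2 system and kinases of innate immunity. With PM in WT 6 of 7 rose and 0 fell, at a median of 0.49, and with OI+PM over PM 2 rose and 2 fell. Nqo1, an NRF2 target, had 3.71 and 3.46 normalized CPM in WT with vehicle, 46.9 and 44.7 with PM, and 209 and 251 with OI+PM. Its level in Acod1-/- libraries was 2.27 and 2.13, 32.6 and 31.0, and 159 and 159. Nqo1 had no overlap between treatments within a genotype, or between genotypes at any treatment. Its PM effect in WT was 3.68 (adjusted p = 3.96e-08, edgeR), and the libraries labelled Acod1-/- against WT gave -0.70, -0.53 and -0.54 with vehicle, after PM and after OI+PM (adjusted p = 0.0234, 0.0130 and 0.00836, edgeR). Of the 7 partners, 1, 2 and 2 were called lower in these comparisons and 0 higher, beside 1.83%, 2.40% and 6.96% of all genes. The lowest partner value after OI+PM was -0.57, in a gene other than Nqo1. The genotype values of Nqo1 are from the model of all 6 groups, and those without single libraries are not given here. The study, which required a fold above 2, reported no significant difference in Nqo1 between genotypes after PM. Its qPCR after PM was described as an equal rise in both genotypes. Hmox1, the heme oxygenase gene and another NRF2 target, rose by 1.12 with PM and 1.40 with OI+PM over PM in WT, the latter 1.54 and 1.24 without OI+PM replicates 1 and 2.

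Nfe2l2, which encodes NRF2, rose by 0.49 with PM (adjusted p = 0.000257, edgeR) and fell by 0.22 with OI+PM over PM (adjusted p = 0.0131, edgeR). With total count scaling the latter value was -0.35. Keap1 rose by 0.32 with PM and stood at 0.03 with OI+PM over PM (adjusted p = 0.756, edgeR). The kinase gene Tbk1 rose by 0.28 with PM. Ikbke, which encodes the related kinase, had 260 and 264 normalized CPM in WT with PM and 73.2 and 75.3 with OI+PM, and 267 and 242 and then 66.6 and 67.9 in Acod1-/- libraries. It rose by 0.93 with PM and fell by 1.82 with OI+PM over PM (adjusted p = 1.45e-08, edgeR; 1.80 and 1.84 without OI+PM replicates 1 and 2), the opposite direction to Sqstm1 in the second step. Traf6, a ubiquitin ligase gene, passed neither test in WT.

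The genes whose log2 CPM followed Sqstm1 most closely over the 12 libraries were Cbr3 and Slc48a1 (Pearson's r = 0.997), then Procr, Clec4d and Fth1 (0.996). For Gabarapl1 they were Layn (0.996), Rps6kc1, Tmc6 and Rras2 (0.995) and Hsp90ab1 (0.994). Sqstm1 and Gabarapl1 had r = 0.92 with each other and Sqstm1 and Mitf r = -0.14. The 12 points share 6 groups and the libraries' scaling, so these values are descriptions only.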

How the data were processed

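The authors deposited a count of reads per gene for each of the 12 libraries, as raw counts keyed by versioned Ensembl gene identifiers. Per the labels and the methods, reads were aligned with STAR (2.5.3a) to GRCm38 and counted with featureCounts, after checks with FastQC (0.11.5) and Picard (2.9.0). How strand and multiply mapped reads were treated is not given in the sources used here. Symbols were attached from the reference annotation for 48349 of 48795 genes.

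Here edgeR (4.0.16, limma 3.58.1, R 4.3.3) was run on the deposited counts. Genes above 1.5 CPM in at least 2 libraries were kept, libraries were scaled by TMM, and 1 quasi-likelihood model held all 6 groups, so that all groups share the estimate of spread. Called means an adjusted p (Benjamini-Hochberg over the 11228 genes) of 0.05 or less, 2-fold means a log2 fold change of at least 1 as well, and intervals are 95%. Levels are TMM-normalized CPM, and per kb levels divide by exonic length. Nothing in the sources says that the 2 libraries of a group came from separate animals, so p-values measure the spread between these libraries. DESeq2 (1.42.0), other scalings, filters, a gene-length correction, the compared groups alone, blocking on replicate number and omitting each library were alternatives. The fits were tested on simulated data. The 10 members and all lists were chosen with earlier results of these data known. All 10 are named; genes named from a list came from the 2 largest rises and 2 largest falls among called genes in the PM and OI+PM contrasts in WT, beside the receptor partners and the 5 genes most like Sqstm1 and Gabarapl1.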

Additional observations from a re-analysis of the deposited data

How the results depend on the processing

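Of 1144 values of single genes under the alternatives, 977 kept their direction and their side of the threshold, 134 kept their direction and no longer passed, 30 newly passed and 3 changed sign. These values cover members at an unadjusted p under 0.05, some genotype and OI interaction contrasts of Sqstm1, Gabarapl1 and Map1lc3a, and the list genes named from called ones in WT. Most contrasts that began above that p, those of Tfeb among them, are left out, so the number newly passing is incomplete. With a 2-fold threshold, members called were 1 for PM in WT, 1 in Acod1-/- cells, 2 for OI+PM over PM in WT, 1 in Acod1-/- cells, and 2 and 2 for OI+PM against vehicle; the genes called in these 6 contrasts were 466, 505, 1211, 1104, 1808 and 1475 instead of 2782, 2684, 4926, 3881, 7350 and 5547. For Acod1-/- against WT with vehicle, after PM and after OI+PM, genes called fell from 205, 269 and 782 to 54, 63 and 103. Fitting the compared groups alone gave 6 members for PM in Acod1-/- cells and 1 for genotype with vehicle. For OI+PM over PM it gave 2 members in WT and 5 in Acod1-/- cells. Genes called in Acod1-/- cells were 5658 for PM, 5789 for OI+PM over PM and 8351 for OI+PM against vehicle. They were 1939 for OI+PM over PM in WT, and 2316, 174 and 2 for genotype. The causes were not tested. Total count scaling and a stricter filter (CPM over 1.5 in every library) each gave 3 members for OI+PM over PM in WT. These stood beside 42.1% and 40.1% of all tested genes. The filter, which tests fewer genes, gave 133 genes for genotype with vehicle. DESeq2 gave 1 member after OI+PM, 434 and 1321 genes for genotype after PM and after OI+PM, and 3 and 34 for the interactions. The gene-length correction gave 1 member after OI+PM, 374, 588 and 1724 genes for genotype and 21 for the OI interaction; with it Tecpr1 in PM over vehicle in WT went to 0.0128.

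The labels give replicate numbers but no shared animal or batch. Deviations of same-numbered libraries correlated at 0.23 and 0.24 between WT vehicle and the other WT groups, and at 0.73 between WT PM and WT OI+PM. Over all pairs of groups they ranged from -0.41 to 0.73. The values of -0.41 were between Acod1-/- PM and the WT PM and WT OI+PM groups, and pairs within Acod1-/- cells ranged from -0.09 to -0.04. The numbers were not taken as pairs in the main model. Every block fitted was shared by both genotypes, so a pairing within WT alone was not tested. A replicate block alone left the counts of members called at 3, 3, 5 and 3 for PM and for OI+PM over PM in WT and Acod1-/- cells. The shares of all genes called in these fits were 27.4%, 25.5%, 45.7% and 35.6%. The block with the length correction gave 2 members after OI+PM, and 5 for PM in Acod1-/- cells beside 30.6% of all genes. It gave 372, 596 and 1895 genes for genotype, 15 for the OI interaction, and Tecpr1 0.00922. A block with the Acod1-/- PM numbers exchanged, chosen after seeing the data, gave 3 members and 1872 genes after OI+PM. For PM in Acod1-/- cells it gave 5 members, beside 31.9% of all genes.

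Leaving out 1 library, with the lone library assumed to vary like the other groups, gave 1 to 2 members for PM in Acod1-/- cells, 0 to 6 for genotype after OI+PM, 2 to 4 for OI+PM against vehicle in Acod1-/- cells and 0 to 2 for the OI interaction. Genes called ranged from 1187 to 3447 for PM in WT, 1391 to 1707 in Acod1-/- cells, 52 to 63, 74 to 153 and 95 to 5452 for genotype, and 0 to 525 for the OI interaction, the lowest being without WT vehicle replicate 1 (1187), Acod1-/- PM replicate 1 (1391 and 74), Acod1-/- vehicle replicate 2 (52) and Acod1-/- OI+PM replicate 1 (95), and 5452 and 525 both without WT OI+PM replicate 1. Sqstm1 in genotype after OI+PM ranged from -0.45 to 0.00586. Total count scaling moved the median of all genes to -0.11 for OI+PM over PM in WT and to -0.20 and -0.15 for OI+PM against vehicle in WT and Acod1-/- cells; the share of calls that were higher went from 50.8% to 35.0% for PM in WT, 50.1% to 37.1% in Acod1-/- cells, 48.5% to 29.9% and 40.3% to 29.7% for OI+PM over PM, 51.3% to 30.9% and 45.9% to 28.5% for OI+PM against vehicle, and 36.1% to 53.4% for genotype after OI+PM. The intervals of Tfeb in the model of all 6 groups included 0 in every comparison, and the settings that called it are given with that gene.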
